A study of Mus musculus with 8 samples.

Results

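The genes described here encode the proteins of the cytosolic ribosome. They were chosen by symbol: names that begin with Rpl or Rps and a digit, Rpsa, and the stalk genes Rplp0, Rplp1 and Rplp2, without pseudogene (-ps) names and Rps6k kinases, and with at least 100 UMIs (unique molecular identifiers, counted molecules) over the 4 gene expression libraries. Of 33696 features, 87 had such a name and 85 reached the minimum. Rpl10l was left out with 0 UMIs and Rps23rg1 with 1 UMI, while Rpl39l was just inside with 106 UMIs and Rpl3l next with 1390 UMIs. The 85 genes were 43 of the large subunit, 31 of the small subunit, 3 of the stalk, 7 paralogs or retrogenes, and Rps19bp1, which encodes a binding protein of Rps19 and is no subunit. They lay on many chromosomes, at most 14 of them on 1 (chromosome 7).

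Leukocytes were taken from liver metastases of 2 Vav1CreTet2KO mice, called knockout here, and 2 Tet2fl/fl mice, called control. In the knockout mice, Cre recombinase under the Vav1 promoter, which is active across the blood lineages, deletes floxed Tet2, an enzyme that oxidises methylated cytosine in DNA. All 4 mice had received Venus-AKTPM/LOH colorectal cancer cells by injection into the spleen, and live CD45+ cells were sorted from the liver tumours 30 days later and read from the 5′ end of transcripts. The control label names the floxed alleles and no Cre, and the labels used here give no age or sex. Because Cre acts in all blood cells, a change within a class of leukocytes cannot be told apart from one that follows from Tet2 loss in the others.

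Each ribosome is built from a large and a small subunit, whose RNAs are made in the nucleolus and whose proteins are made in the cytosol and carried there for assembly. Most ribosomal protein transcripts begin with a cytosine and a run of pyrimidines, the 5′ terminal oligopyrimidine (TOP) motif, through which TOR signalling sets how strongly they are translated. Resting lymphocytes keep a large pool of these transcripts, and mature neutrophils make little protein.

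The 4 libraries held between 57190926 and 91789597 UMIs, and between 10432 and 13083 cells each were used. Tet2 stood at 37.7 and 32.4 UMIs per 1000000 (CPM) over all cells of the knockout mice, and at 66.1 and 65.6 CPM in the control mice. In monocyte/macrophage-like cells it was lower in the knockout (log2 change -0.62, SE 0.108, adjusted p = 0.0136 by edgeR's quasi-likelihood test), and neither knockout mouse reached a control mouse. That call was lost without either knockout mouse and within the largest shared cluster, where the log2 change was -0.36. Tet2 was not called in the 7 other classes, with log2 changes from -0.85 to -0.11, and the genotypes overlapped in plasma-like, CD4 T and neutrophil-like cells. The all-cell values also move with the mix of classes. The labels name no deleted exon, so reads from outside the deleted stretch may remain in these values. Classes of cells were named from fixed marker genes after a clustering that did not use the 85 genes, and "-like" marks a name given that way. Between 186 and 221 cell barcodes were shared by each pair of libraries, at most 1.95% of the smaller library.

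Where 4 values stand together below, they are in the order knockout mouse 1, knockout mouse 2, control mouse 1, control mouse 2. Over all used cells the 85 genes took 25.7%, 26.9%, 19.5% and 20.3% of UMIs. The difference of the group means was 6.38 percentage points. The different mix of classes accounted for 6.20 points of it, and differences within classes for 0.187 points. B-like cells, a class with a high share, numbered 4391 and 4925 in the knockout and 688 and 620 in the control mice. Monocyte/macrophage-like cells, with a lower share, numbered 917 and 1181 against 6572 and 7977. The genotypes were therefore compared within classes.

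T cells and B-like cells spent the largest part of their UMIs on ribosomal proteins, and neutrophil-like cells the smallest. The share was between 30.4% and 37.5% over the 4 mice in CD8 T cells and between 31.3% and 33.6% in B-like cells. It was 25.2% to 29.5% in CD4 T cells, 23.2% to 27.4% in NK-like cells and 21.4% to 24.8% in conventional dendritic-like cells. Monocyte/macrophage-like cells followed with 18.5% to 19.9% and plasma-like cells with 10.9% to 16.9%, and neutrophil-like cells had 4.66% to 5.88%. The ranges of neutrophil-like, plasma-like and monocyte/macrophage-like cells did not overlap with each other or with any other of these 8 classes. In plasma-like cells 31.2% to 50.5% of UMIs were immunoglobulin, and with immunoglobulin and mitochondrial genes left out their share was 22.3% to 24.8%, above monocyte/macrophage-like cells (18.6% to 20.2%) and overlapping with conventional dendritic-like and NK-like cells. CD8 T and B-like cells overlapped, and so did NK-like cells with both CD4 T and conventional dendritic-like cells. These classes come from the same 4 libraries, so their order is a description.

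**Figure D1:**
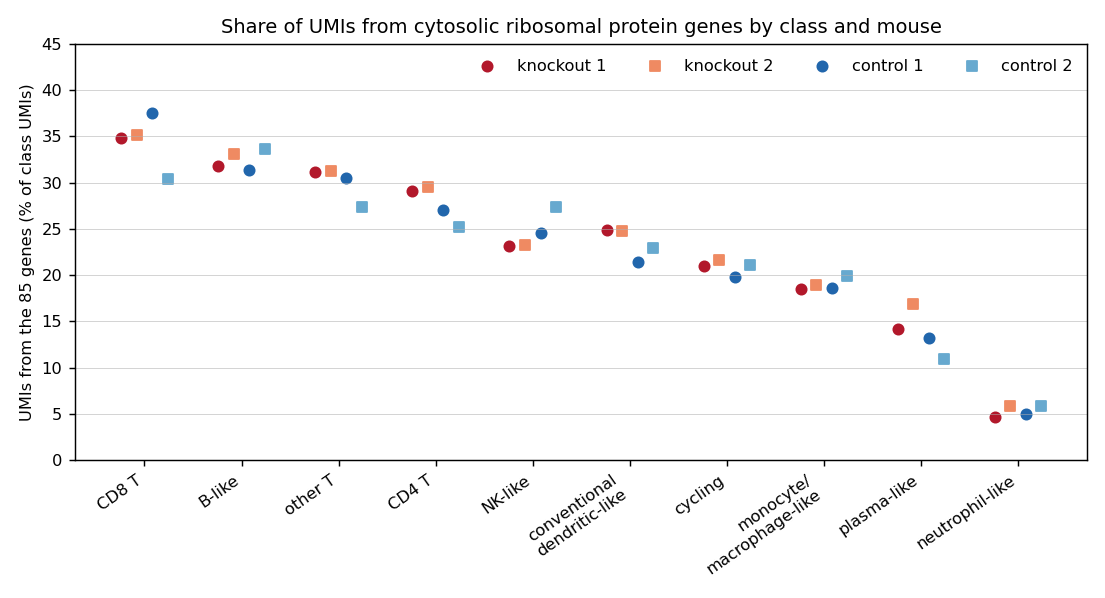
Percent of a class's UMIs that came from the 85 ribosomal protein genes, with 1 point for each mouse (circles and squares) and the classes ordered from high to low. Neutrophil-like cells sit between 4.66% and 5.88%, below every other class, and the points of the 2 genotypes overlap in B-like, CD8 T, monocyte/macrophage-like, neutrophil-like and cycling cells.

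Within T cells the share was highest in naive-like cells. Naive-like T cells are those with the markers of cells that have not met antigen, such as Lef1 and Tcf7. Naive-like sub-cluster 5 had 46.6%, 47.3%, 46.6% and 43.3%. Treg-like cells, the regulatory T cells, had 23.7%, 23.6%, 22.4% and 23.2%. Activated T cells of sub-cluster 0 had 25.7% and 27.9% in the knockout and 22.7% and 24.4% in the control mice. No mouse's value in the naive-like sub-clusters 4, 5 and 8 came as low as any value in the Treg-like, activated or gamma-delta/type 17-like sub-clusters. Sub-cluster 2, which stayed unnamed, had shares near those of naive-like cells, from 37.7% to 43.0%.

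**Figure D2:**
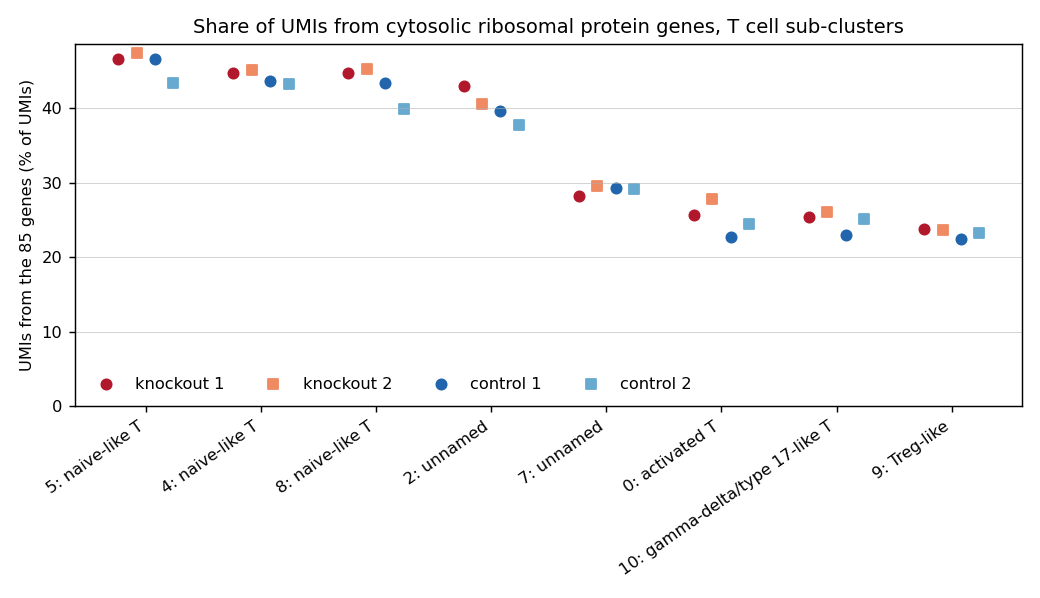
Percent of UMIs from the 85 genes in sub-clusters of T cells with at least 30 cells in every mouse, 1 point for each mouse. The 3 naive-like sub-clusters and sub-cluster 2 lie between 37.7% and 47.3%, and the other 4 sub-clusters between 22.4% and 29.6%.

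The CD8 T class held different parts of naive-like cells. They made up 24.2%, 20.1%, 43.3% and 21.2% of CD8 T cells, and control mouse 1 had the highest share of ribosomal protein UMIs in CD8 T cells (37.5%). Among CD8 T cells outside the naive-like sub-clusters the share was 30.5% and 31.9% in the knockout and 32.4% and 27.1% in the control mice. Among naive-like CD8 T cells it was 46.2% and 47.0% against 45.7% and 43.6%. Median UMIs per naive-like CD8 T cell were also higher in the knockout mice (5974.5 and 5533.5) than in the control mice (4273 and 3931), and the part of depth in the difference was not tested.

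A few clusters had far fewer ribosomal protein UMIs than the classes around them. Cluster 17, 145 cells with 10 of 10 B-like markers and a median of 1153 UMIs, had shares of 2.97%, 2.15%, 0.891% and 1.07%, the last 2 from 3 and 6 cells, against 31.3% or more for all B-like cells. The median cell of cluster 17 had 0.728% to 1.04%. Malat1, a transcript kept in the nucleus, stood at 12206 to 25240 CPM in cluster 17 and at 2789 to 4326 CPM in all B-like cells. Clusters 18 and 25, both unnamed, with 660 and 376 cells, had shares of 5.82% to 9.68% and 2.52% to 7.58%, and Malat1 at 14287 to 25267 and 15918 to 24582 CPM. The median cell had 2.58% to 8.18% in cluster 18 and 0.721% to 1.38% in cluster 25, below the summed share of the cluster in each mouse. Low ribosomal protein UMIs thus came with high Malat1 in these 3 clusters, and the part of cell integrity was not tested. Neutrophil-like cells were low throughout: cluster 19 had 3.25% to 5.03%, cluster 20 had 5.15% to 7.03%, and cluster 28, with the granule genes Camp, Ngp and Ltf of immature neutrophils, had 5.997% to 9.10%, with only 27 and 13 cells in the knockout mice. The class was made of different clusters in the 2 genotypes: cluster 19 held 504, 210, 680 and 365 cells and cluster 20 held 6, 37, 1033 and 749 cells.

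Compared within classes, the share was higher in both knockout mice than in both control mice in 3 of the 8 classes fitted below and lower in 1. In conventional dendritic-like cells the group means were 24.8% ± 0.0482 (SD, n = 2) in the knockout and 22.1% ± 1.06 (SD, n = 2) in the control. In CD4 T cells they were 29.3% ± 0.348 and 26.1% ± 1.32, and in plasma-like cells 15.5% ± 1.89 and 12.04% ± 1.63 (SD, n = 2 each). With immunoglobulin and mitochondrial genes left out the plasma-like shares were 23.6%, 24.8%, 22.4% and 22.3%, a difference of 1.83 points against 3.497 points with them. In NK-like cells the share was 23.2% ± 0.0545 in the knockout and 25.9% ± 2.01 in the control. With 2 mice against 2, the exact two-sided permutation test cannot give less than p = 0.333, the value reached in these 4 classes. In B-like, CD8 T, monocyte/macrophage-like and neutrophil-like cells the genotypes overlapped.

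The difference in CD4 T cells moved with the set of cells compared. Naive-like cells made up 21.8% and 26.2% of the class in the knockout and 18.4% and 5.66% in the control mice. Outside the naive-like sub-clusters the share was 24.7%, 26.0%, 24.4% and 24.7%, a difference of 0.817 points in the same direction. Within the largest cluster shared by the 4 mice the share was 25.5%, 26.7%, 28.1% and 26.8%, lower in both knockout mice. The part of the mix of cells was not tested. Both clusters of conventional dendritic-like cells kept the direction. The Cd209a cluster had 24.6% and 24.8% in the knockout and 21.9% and 23.1% in the control mice, and the Xcr1 and Clec9a cluster 25.05% and 24.8% against 20.1% and 22.2%. Markers of B cells in conventional dendritic-like cells summed to 185 and 356 CPM in the knockout and 67.7 and 67.8 CPM in the control mice, with none of the 10 at 0 in any mouse, and 21 monocyte/macrophage markers, at most 1 of them at 0, to 2015 and 2523 against 4472 and 3743 CPM. The part of either in the result was not tested. Cluster 11, unnamed cells with both T and NK genes (Gzmc, Xcl1, Ncr1), had 21.2% and 22.6% in the knockout and 28.0% and 29.3% in the control mice, and its NK markers summed to 5019 and 4485 against 2614 and 2963 CPM.

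The mixture of ribosomal protein transcripts differed between classes, most of all in neutrophil-like cells. It is given as the percent of all UMIs of the 85 genes that came from 1 gene, so that classes with different totals can be set side by side. For 68 of the 83 genes with at least 20 CPM in some class, the 4 mice of the class with the highest mean did not overlap with the 4 mice of the class with the lowest. Both classes were picked by these same values, which favours such a gap, and the count over other genes is not given here. Among small subunit genes, Rps9 took 4.30% (range 3.41% to 5.83%) in neutrophil-like cells and 1.37% to 2.17% on average in the 7 other classes. Rps27a, which encodes a fusion of ubiquitin and a ribosomal protein, took 3.87% in neutrophil-like, 2.50% in monocyte/macrophage-like and 1.67% in B-like cells. Rps25 took 0.619% in neutrophil-like and 0.247% in CD8 T cells. Rps4x ran the other way, with 0.952% in neutrophil-like cells and 1.86% to 2.00% in the other classes.

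The large subunit genes with the widest class differences were low in neutrophil-like cells. Rpl3, which lies near the site where peptide bonds form, took 0.378% (range 0.227% to 0.534%) in neutrophil-like and 0.967% in CD4 T cells. Rpl12, at the base of the stalk, took 0.252% in neutrophil-like and 0.788% in CD8 T cells. Rpl41, the gene with the shortest coding sequence, was highest in plasma-like cells with 3.70% and lowest in B-like cells with 1.92%. Neutrophil-like cells thus held fewer ribosomal protein UMIs and a different mixture of them, in a class whose median was 1739 to 2527 UMIs per cell. Total UMIs of large over small subunit genes varied little, from 1.11 in naive-like T cells to 1.26 in plasma-like cells (means of 4 mice).

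**Figure D3:**
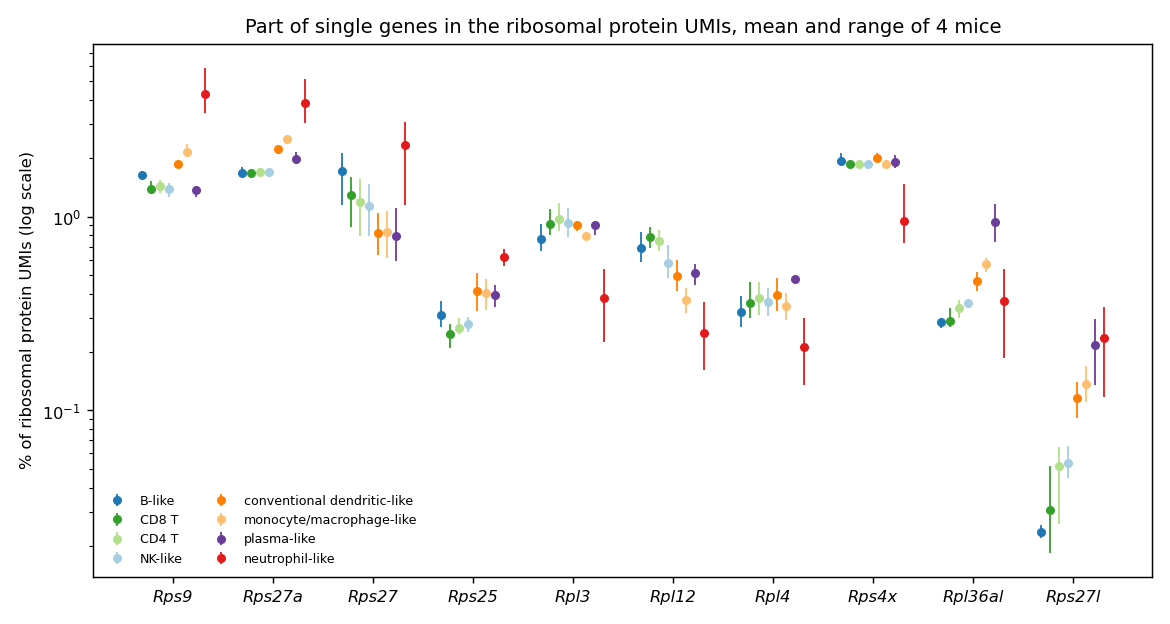
Percent of the UMIs of the 85 genes that came from each of 10 genes, on a log scale, in 8 classes (colours). Points are means and bars the range over the 4 mice; neutrophil-like cells are highest for Rps9, Rps27a and Rps25 and lowest for Rpl3, Rpl12, Rpl4 and Rps4x.

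Paralogs showed wide class differences. Rps27l encodes a near copy of Rps27 and is known as a p53 target. Per 100 Rps27 UMIs, Rps27l had 1.32, 1.17, 1.32 and 1.91 UMIs in B-like cells. In monocyte/macrophage-like cells it had 11.9 and 10.3 in the knockout and 24.5 and 25.4 in the control mice, and in plasma-like cells 18.9 and 12.1 against 50.1 and 47.3. In conventional dendritic-like cells the values were 10.01 and 8.74 against 20.04 and 22.1. In these 3 classes the ratio was lower in both knockout mice than in both control mice. The same held in CD8 T cells (1.20 and 1.46 against 2.54 and 5.88) and CD4 T cells (1.66 and 4.02 against 5.88 and 8.13). NK-like cells (3.48 and 3.81 against 4.78 and 8.23) and neutrophil-like cells (3.79 and 7.19 against 16.97 and 22.75) had this direction too. Among B-like cells, knockout mouse 1 and control mouse 1 were nearly equal.

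Rpl36al, a paralog of Rpl36a, was highest in plasma-like cells, at 0.937% (range 0.736% to 1.16%) of ribosomal protein UMIs, and lowest in B-like cells at 0.287%. Per 100 Rpl36a UMIs it reached 113 to 228 in plasma-like cells, 98.7 to 120 in monocyte/macrophage-like cells and 32.5 to 39.2 in naive-like T cells. Rpl22l1, the paralog of Rpl22, had 38.1 to 44.1 UMIs per 100 Rpl22 in naive-like T cells and 22.1 to 27.6 in conventional dendritic-like cells. Near-identical copies can share reads, and how such reads were counted is not given in the sources used here, so the split between Rps27, the retrogene Rps27rt and similar pairs is uncertain.

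Single genes were tested in the 8 classes that had 30 cells or more from each mouse, on UMI counts summed per mouse. The genes the results turn on are Rps27 (chr3:90119819-90120977, minus strand, GRCm39) and Rps28 (chr17:34034199-34043536, minus) of the small subunit, Rpl38 (chr11:114559350-114563166, plus) and Rpl23a (chr11:78071753-78074425, minus) of the large subunit, Rps6 (chr4:86748406-86775674, minus), whose protein is phosphorylated downstream of TOR, and Rpl5 (chr5:108048367-108058471, plus), part of the 5S particle that can bind Mdm2. The windows below show whether the annotated starts carry a TOP motif, here a C at the start followed by at least 4 C or T on the transcribed strand. Each line gives 15 bases before the RefSeq start and 15 from it on, 5′ to 3′ on the gene's strand (GRCm38.p6), with the longest pyrimidine run of the window in capitals. The run of Rpl5 lies away from its start. The windows are Rps27 chr3:90213634-90213663, Rpl38 chr11:114668565-114668594, Rps21 chr2:180257364-180257393, Rps6 chr4:86857353-86857382, Rps28 chr17:33824548-33824577 and Rpl5 chr5:107900513-107900542.
Rps27: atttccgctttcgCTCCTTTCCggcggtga
Rpl38: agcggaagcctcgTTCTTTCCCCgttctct
Rps21: taccgaggacccgCCCTCCTgcccaatagt
Rps6: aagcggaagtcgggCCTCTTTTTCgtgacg
Rps28: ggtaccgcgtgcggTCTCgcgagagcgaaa
Rpl5: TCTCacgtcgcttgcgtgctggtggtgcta
Rps27, Rpl38, Rps21 and Rps6 have the motif at this start, and Rps28 and Rpl5 do not.

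Over the RefSeq starts, 65 of the 85 genes had a window, with 77 starts in all. The TOP motif was at 14 of the 77 starts (18.2%), against 823 of 32851 starts of all genes (2.51%). A run of at least 8 pyrimidines within 10 bases of the start was present at 31.2% and 10.6%. A match describes the letters at an annotated start, which can be some bases off the start used in these cells.

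Conventional dendritic-like cells, which take up and present antigen, had the most ribosomal protein genes that passed the test. 16 of the 83 tested rose in the knockout and none fell, where of all 10285 genes 4.88% rose, 5.36% fell and 10.2% were called in either direction. The median log2 change of the 83 was 0.14, against 0.03 over all genes tested, and 67 were above 0. With library totals alone in place of TMM factors, 16 rose and 2 fell. Median UMIs per cell were 12258, 10162, 9748 and 8263, and the part of depth in the result was not tested.

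The small subunit genes Rps28, Rps27, Rps29 and Rps21 rose most among those of their subunit. Rps28, near the exit of the messenger RNA channel, stood at 3089 and 3659 CPM in the knockout and 1940 and 1800 CPM in the control mice, a log2 change of 0.85 (SE 0.115, adjusted p = 0.00152 by edgeR). Rps27, a zinc finger protein, stood at 2339 and 2698 against 1425 and 1439 CPM, a log2 change of 0.81 (SE 0.111). Rps29 stood at 3230 and 3869 against 2158 and 1878 CPM, a log2 change of 0.81. Both knockout mice were above both control mice for each, with knockout mouse 2 the highest. Rps21 rose by 0.76 and Rps24 by 0.41 on the log2 scale.

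In the large subunit, Rpl38, known for its part in the translation of homeobox transcripts in the embryo, stood at 2335 and 3010 CPM in the knockout and 1592 and 1403 CPM in the control mice. Its log2 change was 0.84 (SE 0.136, adjusted p = 0.00428 by edgeR). Rpl37 stood at 4521 and 5045 against 2878 and 2779 CPM, a log2 change of 0.76. The 9 others that rose, Rpl36, Rpl37a, Rpl39, Rpl29, Rpl41, Rpl34, Rpl35, Rpl9 and Rpl35a, had log2 changes from 0.40 to 0.65. Again no control mouse reached a knockout mouse for any of these.

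The stalk, which recruits elongation factors, and the 5S particle did not pass the test in these cells. Rplp0 stood at 5062 and 5279 CPM in the knockout and 4479 and 5104 CPM in the control mice, with overlap (log2 change 0.11, -0.00249 without control mouse 1). The log2 changes of Rplp1 and Rplp2 were 0.19 and 0.03. Rpl5 had -0.22 (adjusted p = 0.265 by edgeR) and its partner Rpl11 0.23 (adjusted p = 0.179 by edgeR). Rps27l, against the direction of Rps27, had -0.36 (adjusted p = 0.0894 by edgeR).

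The 16 calls were also made with each knockout mouse left out, within the largest shared cluster, and with scaling from genes other than the 85. In that cluster 24 genes were called, 21 higher and 3 lower in the knockout. Rpl35a was lost with DESeq2 (adjusted p = 0.103), with the replicate block and without either control mouse, Rpl35 with DESeq2 and without control mouse 2, and Rps24 with DESeq2. Of the 16 genes, 13 matched a RefSeq start and 5 had the TOP motif there: Rpl35, Rpl35a, Rpl38, Rps21 and Rps27.

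In monocyte/macrophage-like cells most ribosomal protein genes had log2 changes below 0. Of 85 tested, 1 rose and 9 fell, where 6.21% and 7.32% of 13940 genes did so and 13.5% were called in either direction, and with library totals alone 2 rose and 8 fell. The share called, 10 of 85, was thus near the background. The median log2 change of the 85 was -0.18, against 0.01 over all genes, and for 55 genes both knockout mice were below both control mice. The share of all genes separated in this way is not given here. The class was made of different clusters in the 2 genotypes: cluster 3 held 63, 99, 1781 and 1743 cells and cluster 5 held 14, 15, 920 and 2201 cells. Within the largest shared cluster the median was -0.13, with 1 gene higher and 8 lower. Rps27 was the gene that rose, at 1676 and 2024 CPM in the knockout and 1303 and 1282 CPM in the control mice (log2 change 0.52, SE 0.137, adjusted p = 0.0479 by edgeR).

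The 9 that fell belong to both subunits, the stalk, the 5S particle and the paralogs. Rpl23a, at the mouth of the exit tunnel, stood at 429 and 445 CPM in the knockout and 651 and 779 CPM in the control mice, a log2 change of -0.71 (SE 0.133, adjusted p = 0.0171 by edgeR). Rps6 stood at 800 and 839 against 1153 and 1412 CPM, a log2 change of -0.65. Rps27l stood at 200 and 209 against 320 and 325 CPM, a log2 change of -0.66 (adjusted p = 0.0125 by edgeR). The 2 knockout mice lay close together and below both control mice in each case.

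Of the stalk, Rplp1 fell, from 2814 and 3502 CPM in the control to 2138 and 2194 CPM in the knockout mice (log2 change -0.54). Its partners did not pass, Rplp0 with a log2 change of -0.36 (adjusted p = 0.147 by edgeR) and Rplp2 with -0.33. Of the 5S particle, Rpl5 fell by 0.48 on the log2 scale, and Rpl11 had -0.12. Rps25 of the small subunit and Rpl12 and Rpl4 of the large subunit had log2 changes from -0.55 to -0.53, all past the threshold. No call was left without either knockout mouse, and some were lost without control mouse 2. The median log2 change of the 85 was -0.25 without control mouse 1 and -0.10 without control mouse 2. B cell markers in these cells summed to 96.6 and 97.6 CPM in the knockout and 42.7 and 23.2 CPM in the control mice, with none of the 10 at 0 in any mouse, and their part in the result was not tested.

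NK-like cells had 1 call. Rpl5 stood at 863 and 768 CPM in the knockout and 1211 and 1329 CPM in the control mice, a log2 change of -0.64 (SE 0.129, adjusted p = 0.0285 by edgeR). It was 1 of 83 tested, with 0.57% of all genes higher, 0.407% lower and 0.976% called in either direction. 41 of the 83 had an unadjusted p under 0.05, where 1107 of all 8603 genes had one. For 65 of the 83 both knockout mice were below both control mice, and the share of all genes separated so is not given here. The median log2 change of the 83 was -0.24, against 0.01 over all genes. The call on Rpl5 was lost without either knockout mouse. This median was -0.30 without control mouse 1 and -0.15 without control mouse 2. With the finer clustering at resolution 2, which draws the class differently, 26 of the 83 fell, where 239 of 10072 genes rose and 190 fell.

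No ribosomal protein gene passed edgeR's test in B-like, plasma-like, CD8 T, CD4 T or neutrophil-like cells, where 0.139%, 1.32%, 1.63%, 0.278% and 5.41% of all genes were called. Split by direction, 0.0262%, 0.303%, 0.628%, 0.167% and 3.08% of all genes were higher and 0.113%, 1.01%, 1%, 0.111% and 2.33% lower. In the same order, 12, 13, 6, 20 and 10 of them had an unadjusted p under 0.05, and DESeq2 called 0, 0, 0, 2 and 2. Of all genes, 1232 of 11470, 1256 of 6608, 1656 of 10503, 1183 of 8986 and 1879 of 8403 had such a p. By DESeq2, 37 of all genes were higher and 30 lower in CD4 T cells, and 285 and 153 in neutrophil-like cells. CD4 T cells had the highest median log2 change of these classes, 0.19 against -0.01 over all genes, with 69 of 83 above 0. Within the largest shared cluster it turned to -0.13, with 22 of 83 above 0. In B-like cells the highest value was that of Rpl38 (log2 change 0.69, adjusted p = 0.328 by edgeR), with 0.48 to 0.95 when 1 mouse was left out. Among CD4 T cells, the median log2 change of the 83 ran from 0.10 to 0.26 with 1 mouse left out. In plasma-like cells the lowest was that of Rps27l, at 231 and 198 CPM in the knockout and 439 and 415 CPM in the control mice (log2 change -0.997, adjusted p = 0.0514 by edgeR), which was called without control mouse 1. In CD8 T cells Rps27l had -0.80 (adjusted p = 0.0954 by edgeR) and was called with each of 3 mice left out in turn, and the calls over the 83 genes turned with the mouse left out. The median was 0.24 without control mouse 1 and -0.17 without control mouse 2. Within the largest shared cluster of CD8 T cells 13 were higher and 0 lower, where 58 of 8796 genes were higher and 32 lower. In neutrophil-like cells the median was -0.25 without control mouse 1 and 0.05 without control mouse 2.

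Medians near 0 turned with the scaling. With library totals alone the median of the tested genes was -0.04 in B-like cells (0.04 with TMM), -0.02 in CD8 T cells (0.01 with TMM) and 0.31 in plasma-like cells (-0.08 with TMM). That scaling moved the median of all genes from 0.02 to 0.38 in plasma-like cells and from -0.08 to -0.24 in neutrophil-like cells. In neutrophil-like cells the median of the ribosomal protein genes was -0.09 with TMM and -0.24 with totals. Within their largest shared cluster it was 0.24 with TMM, with 70 of 83 genes above 0 and 5 called higher.

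The same genes stood at the ends of the list in class after class. The classes share the 4 mice, so these are not independent repeats. Of 83 genes tested in all 8 classes, 7 were higher in both knockout mice than in both control mice in every class: Rps27, Rpl38, Rps29, Rps21, Rpl37, Rpl39 and Rpl34. Their 3 counterparts, lower in every class, were Rpl23a, Rps6 and Rpl4. How many of all genes were separated in 1 direction in every class is not given here. The log2 change of Rps27 was between 0.48 and 1.10 over the classes and that of Rpl38 between 0.28 and 0.84. Rpl23a had log2 changes from -0.71 to -0.25. A direction in every class did not mean a call in every class, since Rps27 passed only in conventional dendritic-like and monocyte/macrophage-like cells and Rpl23a only in the latter.

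The difference between classes was tested for 2 pairs. Between CD8 T and monocyte/macrophage-like cells the genotype change differed for 0 of 85 genes by edgeR (2.4% of all genes), with 0 at an unadjusted p under 0.05, and between B-like and monocyte/macrophage-like cells for 1 of 84 (3.1% of all genes), with 43 at an unadjusted p under 0.05. DESeq2 was not run on these differences, and unadjusted counts over all genes are not given here. That gene was Rps27l, with a log2 change of 0.27 in B-like and -0.66 in monocyte/macrophage-like cells in the separate fits. The difference was 1.01 (SE 0.194, adjusted p = 0.0141 by edgeR). Without either knockout mouse both numbers of genes were 0. The median difference of the ribosomal protein genes was 0.20 and 0.29 for the 2 pairs in that order, against -0.000546 and 0.11 over all genes. It was 0.46 and 0.35 without control mouse 1, against 0.00637 and 0.16 over all genes. Without control mouse 2 it was -0.05 and 0.27, against 0.06 and 0.17 over all genes.

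The genes with high values in the knockout had short coding sequences, a view taken after the values were seen. 11 of the 85 have a coding sequence under 300 bases: Rpl41, Rpl39l, Rps28, Rpl38, Rpl39, Rps21, Rps27, Rps27l, Rps27rt, Rps29 and Rpl37. In conventional dendritic-like cells 8 of the 10 tested rose, with a median log2 change of 0.76. Of those from 300 to under 450 bases 6 of 30 rose (median 0.16), from 450 to under 600 bases 2 of 19 (median 0.20), and of 600 bases or more none of the 21 and 3 genes on either side of 900 bases. Across the 83 genes the log2 change and the log2 of the coding length had a Pearson correlation of -0.51, given with no test because the genes share their libraries. Over the classes this correlation was between -0.64 in NK-like and -0.31 in plasma-like cells.

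Length did not go with the change in the same way among other genes. Among 1193 other genes over 100 CPM in conventional dendritic-like cells the correlation was 0.10. Of the 76 of them under 300 bases, 3 rose and 10 fell, and their median log2 change was -0.14. Over the classes the correlation among other genes over 100 CPM was between 0.06 and 0.19.

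**Figure D4:**
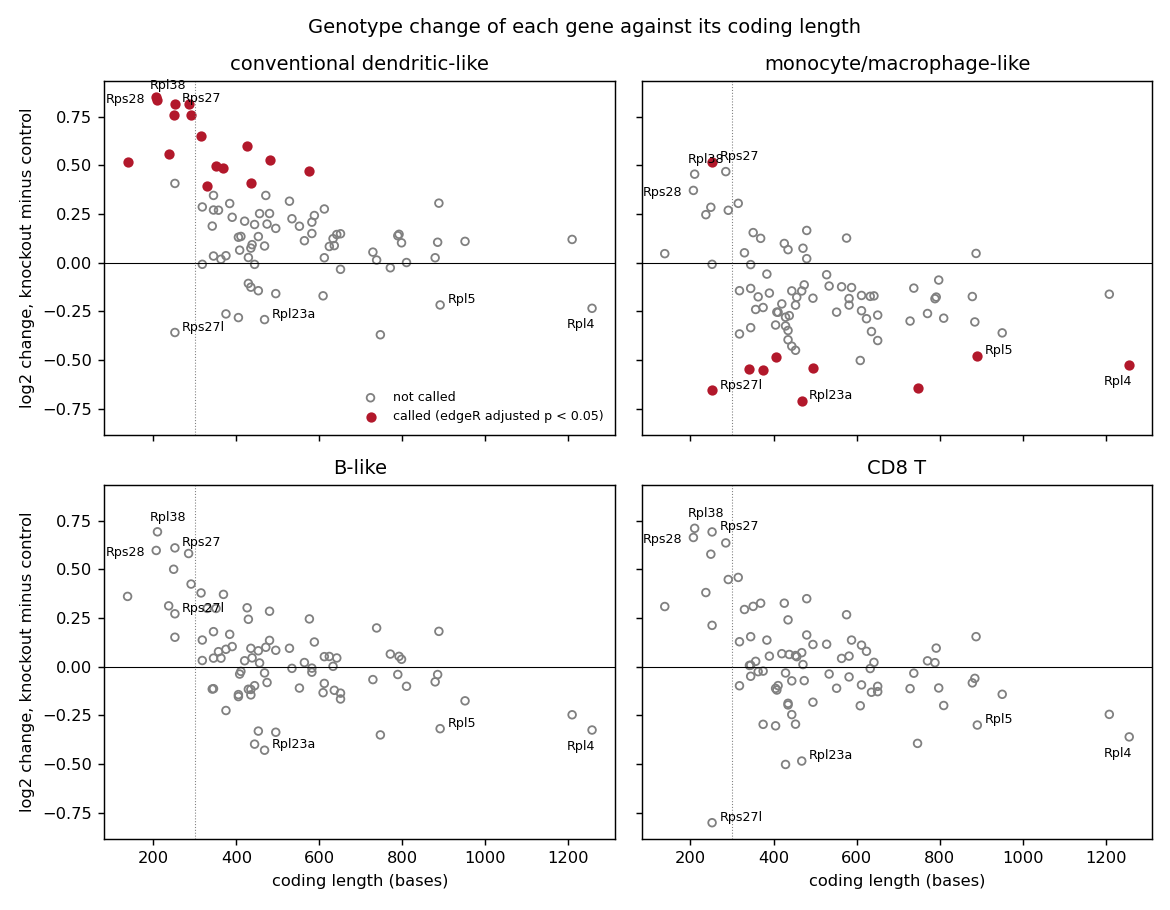
Log2 change (knockout minus control) of 83 ribosomal protein genes against coding length in bases, in 4 classes, with filled points for genes past the threshold. The dotted line marks 300 bases, and most genes to its left lie above 0 in all 4 panels, while Rps27l lies below 0 in 3 of them.

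The 11 short genes took a larger part of the ribosomal protein UMIs in both knockout mice than in both control mice in all 8 classes. In B-like cells they took 12.01%, 13.6%, 10.6% and 8.61%. Conventional dendritic-like cells had 11.3% and 12.7% against 9.33% and 8.10%. Monocyte/macrophage-like cells had 11.6% and 13.3% against 10.2% and 8.77%. The 4 mice kept 1 order in every class, with knockout mouse 2 highest, then knockout mouse 1, control mouse 1 and control mouse 2.

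Mice of the same genotype thus also differed, in the same order from lymphocytes to neutrophil-like cells. Each mouse is 1 library, so what belongs to the library and what to the mouse cannot be told apart. The 25 genes of 600 bases or more ran the other way in conventional dendritic-like cells, with 28.5% and 28.2% of ribosomal protein UMIs in the knockout and 30.9% and 31.7% in the control mice. For the short genes the group difference was 2.35 points in plasma-like cells and 5.57 points in neutrophil-like cells. In the 6 other classes it was between 2.97 and 3.35 points. The short genes were grouped after their changes in these same mice were seen, so no test of this difference is given. Within the largest shared cluster of each class, an alternative added after the values were seen, the difference was 4.26 points in neutrophil-like cells and between 2.35 and 3.35 points in the other classes. Plasma-like (2.35) and NK-like cells (3.35) form a single cluster each, so their values could not change. The neutrophil-like values in the largest shared cluster were 18.3%, 19.4%, 15.9% and 13.2%.

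**Figure D5:**
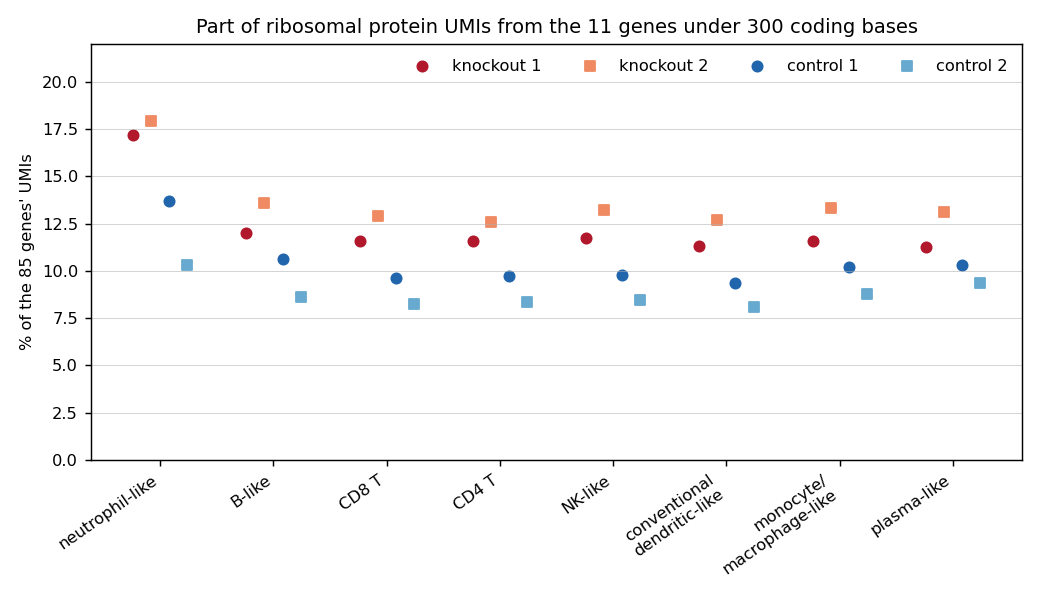
Percent of the UMIs of the 85 genes that came from the 11 genes under 300 coding bases, 1 point for each mouse, in 8 classes. In every class knockout mouse 2 is highest and control mouse 2 lowest, and neutrophil-like cells reach the highest values (17.2% and 17.9% in the knockout mice).

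Other genes of the ribosome and of translation were taken from lists set beside the 85 genes. Fau, whose protein is a fusion of a ubiquitin-like part with a ribosomal protein, and Rack1, on the head of the small subunit, fall outside the naming rule. Fau in conventional dendritic-like cells stood at 7613 and 8316 CPM in the knockout and 5657 and 5882 CPM in the control mice, a log2 change of 0.47 (SE 0.0985, adjusted p = 0.0133 by edgeR). Fau thus rose with the 16 genes, and Rack1 did not pass. Neither was called by edgeR in the 7 other classes.

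Few genes of the lists around the ribosome were called. In conventional dendritic-like cells, 0 of 40 ribosome biogenesis genes rose and 2 fell, among them Nhp2 of the pseudouridine-forming particles (log2 change -0.77). Of 9 elongation factors Eif5a fell (-0.66), of 29 initiation factors Eif6 fell, and of 78 mitochondrial ribosomal protein genes 4 fell and none rose. The shares that fell, 5% of the biogenesis and 5.13% of the mitochondrial list, were near the 5.36% of all genes. None of 7 nascent chain factors passed. In the TOR and Myc list 1 of 26 rose (Sesn1) and 1 fell (Mxi1), and in the p53 and ribosome stress list 1 of 12 rose, again Sesn1.

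Some genes of the mitochondrial ribosome fell in monocyte/macrophage-like cells. 18 of 78 mitochondrial ribosomal protein genes (23.1%) fell and none rose, where 7.32% of all genes fell, with a median log2 change of -0.33 against 0.01 over all genes. Mrpl51 had -0.94 and Mrpl17 -0.61. Of 40 biogenesis genes 4 fell and none rose, among them Nhp2 (-0.98) and Rrp12 (-1.03), and of 29 initiation factors 3 fell, among them Eif3b (-0.61), which is 10% and 10.3%, nearer that background. None of 9 elongation factors and none of 7 nascent chain factors passed. In the TOR and Myc list 2 of 26 rose and 3 fell, and in the p53 and ribosome stress list 1 of 14 rose and 1 fell, with Sesn1, an inhibitor of TOR signalling, at 0.95. The mitochondrial count was 1 without knockout mouse 1 and 0 without the other knockout mouse. The biogenesis count was 0 and 1 in the same order, and 15 without control mouse 2.

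The lists gave few calls elsewhere. In NK-like cells Myc, which drives ribosome biogenesis, fell with Rpl5 (log2 change -0.79, adjusted p = 0.0244 by edgeR), and was lost without either knockout mouse and with DESeq2. The median of the 78 mitochondrial ribosomal protein genes was -0.27 there, with 1 call, upward. Plasma-like cells had 1 call over all lists, CD8 T cells 2, and B-like and CD4 T cells none, while in neutrophil-like cells Eif5a, Cdkn1a and Mrpl51 fell and Sesn3 and Mnt rose.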

How the data were processed

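Single-cell UMI counts per gene and cell barcode for 4 gene expression libraries, 1 for each mouse, were used as the authors deposited them. Per the submitters' processing notes these counts were made with Cell Ranger 8.0.1 on GRCm39, and Seurat 5.0.1 and R 4.4.1 are also named there; the annotation release is not given in the sources used here. Other deposited columns hold barcodes and gene names. T cell receptor libraries were not analysed here.

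Barcodes under 200 genes or over 10% mitochondrial UMIs were left out, and doublets were removed with Scrublet run through scanpy 1.11.5 (0.8% expected for each 1000 cells). The medians were 3739, 3726, 6639 and 6225.5 UMIs per barcode. Counts were scaled to 10000 per cell and clustered without the 85 genes (2000 variable genes, 30 principal components, 20 neighbours, Leiden resolution 1, with leidenalg 0.10.2 and igraph 0.11.9 in python 3.11.15); T cells were clustered again with 20 components at resolution 0.8. A cluster was named only when 3 or more fixed markers were 2 times higher than elsewhere and seen in 10% of its cells. Some clusters with that many markers still stayed unnamed, among them cluster 18 (16 monocyte/macrophage markers) and cluster 25 (6 T cell markers). CD8 and CD4 T cells are T-like cells with UMIs of Cd8a or Cd8b1, or of Cd4. Locations come from GENCODE M39 on GRCm39, sequences from RefSeq on GRCm38.p6.

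Counts were summed per mouse and class and tested with edgeR 4.0.16 in R 4.3.3 (filterByExpr, TMM factors, robust quasi-likelihood test, Benjamini-Hochberg adjustment over all genes of the class, threshold 0.05). Levels in CPM use TMM-scaled totals, but marker sums, Malat1 and Tet2 over all cells use plain totals. Differences between classes were fitted with the mouse as a block. Shares were compared by exact permutation. Alternatives were RLE factors, library totals, scaling from other genes, no filter, a replicate block, DESeq2 1.42.0, doublets kept, a stricter cell filter (500 genes, 5%), resolution 2, the largest shared cluster and each mouse left out. The tests were checked on simulated data. With 2 mice a group, p-values measure the spread between these mice, and intervals cover counting error only.

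The genes named are the 5 largest calls in each direction per class with separated mice, the 10 widest class ratios among genes with at least 20 CPM, a fixed set (stalk, 5S particle, paralog and some other genes, of which those the results turn on are printed), and up to 4 calls per pathway list; other genes were named after their values were seen. Some single genes are not reported here. The genes and lists were chosen with earlier results of these data known.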

Additional observations from a re-analysis of the deposited data

Results flagged for a closer look

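The genotype change of Rps27l, the near copy of Rps27, differed between B-like and monocyte/macrophage-like cells by a test of the difference itself: the B-like change minus the monocyte/macrophage-like change was 1.01 on the log2 scale (edgeR). Levels were 82.3 and 86.4 CPM in the knockout and 69.2 and 70.5 CPM in the control mice in B-like cells. In monocyte/macrophage-like cells they were 200 and 209 against 320 and 325 CPM. In each class the 2 genotypes did not overlap, and in opposite directions. Over all genes tested, the median of the B-like minus the monocyte/macrophage-like change was 0.11. The call on Rps27l was lost without either knockout mouse.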

How the results depend on the processing

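Directions of the share difference turned in classes whose genotypes overlapped and in CD4 T cells, whose genotypes did not. As the mean of single-cell shares it was 0.269 points in B-like, -0.690 in CD8 T and 0.245 in neutrophil-like cells, and within the largest shared cluster 0.489 in B-like, -1.36 in CD4 T and 1.41 in neutrophil-like cells. With 1 mouse left out it ran from -1.15 to 1.12 in B-like cells (0.630 without knockout mouse 1), -2.48 to 4.65 in CD8 T, -1.23 to 0.0815 in monocyte/macrophage-like and -0.761 to 0.462 in neutrophil-like cells (0.257 without control mouse 2). With 1 mouse left out it kept its sign in plasma-like (2.16 to 4.83), CD4 T (2.27 to 4.14), NK-like (-4.15 to -1.30) and conventional dendritic-like cells (1.92 to 3.43). Ribosomal protein genes called numbered, in plasma-like cells, 1 with RLE factors, 1 with library totals, 1 with scaling from other genes and 2 with no filter; in CD8 T cells, 5 with no filter and 13 in the largest shared cluster. In CD4 T cells they numbered 1 with totals, 10 with no filter, 2 with DESeq2 and 2 with doublets kept. In NK-like cells they numbered 2 with RLE factors, 2 with scaling from other genes, 18 with no filter and 26 at resolution 2. In neutrophil-like cells they numbered 1 with totals, 1 with scaling from other genes, 7 with no filter, 2 with DESeq2 and 5 in the largest shared cluster. With no filter the class differences numbered 1 (CD8 T) and 46 (B-like), where 1056 of 23131 and 1455 of 23202 of all genes differed. The number of all genes called also moved with the setting and with the mouse left out. A count given here without that number does not show more calls than the background. Leaving out 1 mouse leaves 1 mouse in a group, so the ranges that follow are not compared with all genes. With 1 mouse left out, calls ran from 0 to 8 (B-like), 0 to 1 (plasma-like), 0 to 42 (CD8 T), 0 to 4 (CD4 T), 0 to 46 (NK-like), 0 to 21 (monocyte/macrophage-like), 0 to 13 (neutrophil-like) and 14 to 18 (conventional dendritic-like), and class differences from 0 to 76 and 0 to 51. The replicate block gave 1 call in CD8 T, 1 in CD4 T, 4 in NK-like and 5 in neutrophil-like cells, 15 in conventional dendritic-like, 10 in monocyte/macrophage-like and 0 in B-like and plasma-like cells. Same-numbered mice correlated between -0.0647 and 0.159 by class in their deviations from the group means. Counting noise enters these values, so they cannot show whether such mice share a batch, which was not tested. With the block, 91 of all genes were higher and 148 lower in B-like cells, against 3 and 13 without it. In monocyte/macrophage-like cells calls over all genes were fewer, 774 and 912 against 865 and 1020. The log2 change of Rplp2, conventional dendritic-like, was -0.0259 with totals and -0.0494 to 0.0795 with 1 mouse left out, and that of Rplp0, conventional dendritic-like, -0.00249 to 0.175. In monocyte/macrophage-like cells the log2 change of Tet2 was -0.36 in the largest shared cluster and -0.64 to -0.56 with 1 mouse left out. Mitochondrial ribosomal protein genes called there numbered 10 with totals, 35 with no filter, 11 with the replicate block and 0 to 24 with 1 mouse left out. Biogenesis genes numbered 8 with no filter, 9 in the largest shared cluster and 0 to 15 with 1 mouse left out. Of the ribosomal genes outside the naming rule in conventional dendritic-like cells, 1 was called in the largest shared cluster and 1 to 2 with 1 mouse left out. Pathway lists and coding length were examined after the values were seen. Of 38 called results of single genes, 17 were lost without knockout mouse 1, 17 without knockout mouse 2, 2 without control mouse 1 and 8 without control mouse 2. DESeq2 lost 4, the largest shared cluster 5 and the stricter cell filter 0. Apart from fewer samples, the causes were not tested.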

Other observations

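Rpl3l, the striated muscle paralog of Rpl3, had 1209 UMIs in the 8 classes, of which 983 (81.3%) were in monocyte/macrophage-like and 211 (17.5%) in neutrophil-like cells. It had 0 UMIs in all 10624 B-like cells, which allows a share of cells with a UMI of up to 0.0840%, 0.0749%, 0.535% and 0.593% in the 4 mice (upper bounds of exact 95% binomial intervals). In neutrophil-like cells it stood at 29.7 and 46.1 CPM in the knockout and 20.9 and 14.7 CPM in the control mice, a log2 change of 1.19. In monocyte/macrophage-like cells, the only other class in which it was tested, it ran the other way, with a log2 change of -0.59. The genotypes did not overlap in either class, and neither change passed the threshold. Msrb1, a methionine sulfoxide reductase gene, is the next gene on the same strand of chromosome 17 (GRCm39, start 24955614, end 24961752) and does not overlap Rpl3l (start 24946751, end 24955119). Of 190111 Msrb1 UMIs 86.4% were in monocyte/macrophage-like and 10.7% in neutrophil-like cells, where it stood at 3832 and 3249 CPM in the knockout and 1868 and 1341 CPM in the control mice. The part of Msrb1 reads in the Rpl3l counts was not tested. Rpl39l, the other rare gene of the 85, had 85 UMIs, 57 of them (67.1%) in monocyte/macrophage-like cells.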
